A study of Danio rerio with 18 samples.

Results

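The mitochondrial genome of vertebrates is a small circular DNA that encodes proteins of the respiratory chain together with the ribosomal and transfer RNAs used to translate them. All rows of the deposited tables that carry the chromosome name MT were taken, which gave 37 of 34326 rows. They comprised 13 protein-coding genes, 2 rows of the length of ribosomal RNA genes and 22 rows of the length of transfer RNA genes.

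The data were bulk RNA-seq of up to 1000 eGFP-positive cells per library, sorted from dissociated eyes of zebrafish larvae which the labels give as RPE (retinal pigment epithelium, a single sheet of pigmented cells that faces the photoreceptors). Ablated larvae had been kept in 10 mM metronidazole (MTZ) for 24 h from 5 to 6 days post fertilisation (dpf), and unablated larvae (MTZ-) had not. All larvae, controls included, had been kept in 1.5X phenylthiourea, which blocks pigment formation, from 0.25 to 5 dpf. Sorting took place at 2, 4 and 7 days post-injury (dpi), and each of the 6 groups had 3 libraries, 18 in all. The submitters call the ablation genetic. The transgene that makes cells sensitive to the drug is not named in the sources used here. With no group that received the drug alone, the effects of the drug and of the loss of cells cannot be told apart. No label states whether replicates were separate clutches, and p-values therefore cover the spread between these libraries and no more.

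Mitochondrial DNA is transcribed from both strands into long precursors, which are cut at the transfer RNAs into single messages and then polyadenylated. The proteins enter complexes I, III, IV and V of oxidative phosphorylation, where they join subunits made from nuclear genes. Complex II is made from nuclear genes alone. The RPE is a metabolically active epithelium that relies strongly on oxidative phosphorylation while it passes glucose on to the photoreceptors.

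Libraries held 21.9 to 60.4 M counts. The 20 matched RPE markers summed to between 62086 and 146300 CPM (counts scaled to library size), and rpe65a, which encodes the visual cycle isomerase, stood between 4182 and 29828 CPM in the 18 libraries. Markers of other cell types were read at lower levels. Müller glia markers summed to 635 to 15738 CPM, of which glula, the glutamine synthetase gene, gave up to 13935 CPM. Photoreceptor markers summed to 453 to 4091 CPM, retinal neuron markers to 59.6 to 649, keratinocyte markers to 4.79 to 577, lens markers to 2.97 to 284 and erythrocyte markers to 0.648 to 37.5 CPM. The globin gene hbae3 was at 0 in 17 of 18 libraries, the lens gene cryaa in 9, and the muscle genes ckma and tpma and the keratin gene krt5 in 4 each. The summed muscle markers reached 2523 CPM in unablated 2 dpi replicate 1 and at most 381 CPM elsewhere, and the summed macrophage and microglia markers reached 1303 CPM in ablated 7 dpi replicate 3 and at most 363 CPM elsewhere. The sequencing names of all replicates 2 and 3, 12 libraries in all, hold a date string, and those of replicate 1 hold none. There are 4 such strings. One is shared by the 4 libraries of replicates 2 and 3 at 2 dpi, another by the 4 libraries of replicate 2 at 4 and at 7 dpi, and each of the other 2 by the pair of replicate 3 at 4 or at 7 dpi. The library labelled unablated 4 dpi replicate 1 has the word positive in its sequencing name. A note in the labels describes this as a naming mistake, and the treatment label was followed. Bulk values do not tell fewer cells of a type from less RNA per cell.

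None of the 24 rows of ribosomal or transfer RNA length held a count in any of the 18 libraries. The files give them clone names only. They were listed at 0, as were all 297 rows named as microRNAs, and no level can be given for any of them. The 2 longest of these rows span 952 and 1683 bases, and the 22 short rows span 68 to 77 bases, 8 of them on the minus strand. All further results concern the 13 protein-coding genes, each of which held counts in every library and passed the filter on low counts.

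Positions are those of the files, on the MT sequence of GRCz10. The 7 complex I genes lie at 3803 to 4777 (mt-nd1), 4993 to 6039 (mt-nd2), 10590 to 10940 (mt-nd3), 11009 to 11305 (mt-nd4l), 11299 to 12679 (mt-nd4), 12897 to 14717 (mt-nd5) and, on the minus strand, 14714 to 15232 (mt-nd6). mt-cyb of complex III lies at 15308 to 16448. The complex IV genes lie at 6425 to 7975 (mt-co1), 8130 to 8820 (mt-co2) and 9735 to 10520 (mt-co3), and those of complex V at 8894 to 9058 (mt-atp8) and 9052 to 9735 (mt-atp6). Neighbouring genes overlap in 4 places. mt-atp8 and mt-atp6 share 7 bases, mt-nd4l and mt-nd4 share 7, mt-atp6 and mt-co3 share 1, and mt-nd5 and mt-nd6, on opposite strands, share 4. How reads in the overlaps were assigned and whether strand was used is not given in the sources used here, so the split between these neighbours is uncertain.

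Per length, in the deposited TPM (counts scaled to gene length and library size), complex IV messages stood highest. mt-co2, whose protein takes electrons from cytochrome c, had the highest TPM of the 13 genes in 18 of 18 libraries, with a mean of 48591 TPM over all libraries and a range of 21662 to 72928. mt-co3, a structural core subunit, followed with 35437 TPM (16034 to 57862). mt-co1, the catalytic subunit that reduces oxygen, had a mean of 19622 TPM and the widest range, from 3606 to 36137, which is 10.0-fold. mt-cyb, a haem-bearing subunit of complex III, came next with 16676 TPM (8899 to 31046), and then mt-atp6, part of the proton channel of ATP synthase, with 7088 TPM (2091 to 15916). All complex I messages lay below these 5 in mean TPM.

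Among the lower genes mt-nd4 led with a mean of 2964 TPM, followed by mt-atp8 with 2041, mt-nd2 with 1723, mt-nd1 with 1496 and mt-nd4l with 1389.8 TPM. mt-nd5, mt-nd6 and mt-nd3 closed the order with 1023, 924 and 789 TPM. The upper end of this order held within libraries and the lower end did not. mt-co2 exceeded mt-co3 in 18 of 18 libraries, mt-cyb exceeded mt-atp6 in 17 of 18 and mt-atp6 exceeded mt-nd4 in 18 of 18. mt-co1 exceeded mt-cyb in 14 of 18. Neighbours near the bottom changed places freely, with mt-nd2 above mt-nd1 in 10 of 18 libraries and mt-nd5 above mt-nd6 in 10 of 18.

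**Figure D1:**
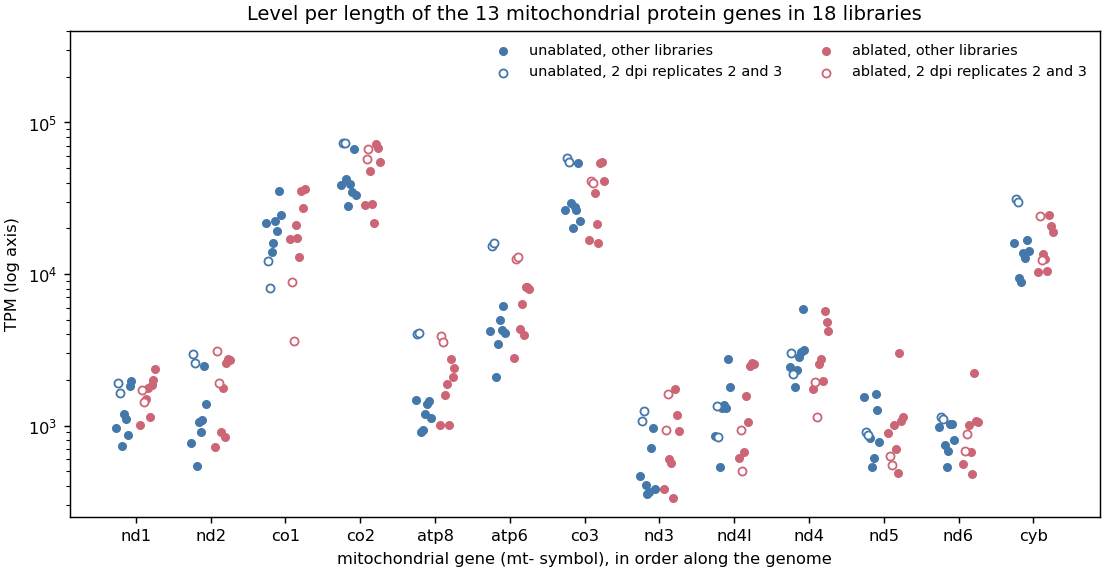
TPM on a log axis for each of the 13 protein genes in genome order, with 1 point per library, blue for unablated and red for ablated, and open points for replicates 2 and 3 at 2 dpi. mt-co2 stands highest in all 18 libraries, and the open points of mt-co1 lie at the bottom of that gene's range of 3606 to 36137 TPM while those of mt-atp6 and mt-atp8 lie at the top of theirs.

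mt-atp8 and mt-atp6, and likewise mt-nd4l and mt-nd4, are carried on shared messages in mammals. In both pairs the downstream frame had the higher TPM in every library. mt-atp6 stood 2.31 to 4.26 times above mt-atp8, and mt-nd4 stood 1.64 to 3.82 times above mt-nd4l. mt-atp8, at 165 bases, is the shortest of the 13 rows.

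The 13 genes together took between 3.63% and 12.8% of a library's counts. The share was 6.02, 12.8 and 12.2% in unablated and 4.32, 10.0 and 9.49% in ablated replicates 1, 2 and 3 at 2 dpi. At 4 dpi it was 4.87, 4.00 and 5.89% and 6.77, 5.07 and 3.63%, and at 7 dpi 5.28, 10.8 and 5.67% and 11.4, 11.5 and 10.2%, in the same order. No 4 dpi library exceeded 6.77%, and the 3 ablated 7 dpi libraries were the only group in which all libraries exceeded 10%. As means these shares were 10.4% ± 3.77 (SD, n = 3) and 7.94% ± 3.15 at 2 dpi, 4.92% ± 0.944 and 5.16% ± 1.57 at 4 dpi, and 7.25% ± 3.09 and 11.0% ± 0.734 at 7 dpi. The arms overlapped in this share at every time.

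Complex IV messages made up 64.9% to 80.2% of the mitochondrial counts in the 18 libraries, mt-cyb of complex III 10.4% to 21.2%, the 7 complex I genes 6.28% to 10.4%, and the complex V genes 1.71% to 8.27%. Complex I therefore took less of the mitochondrial counts than complex IV in every library although it has more genes.

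**Figure D2:**
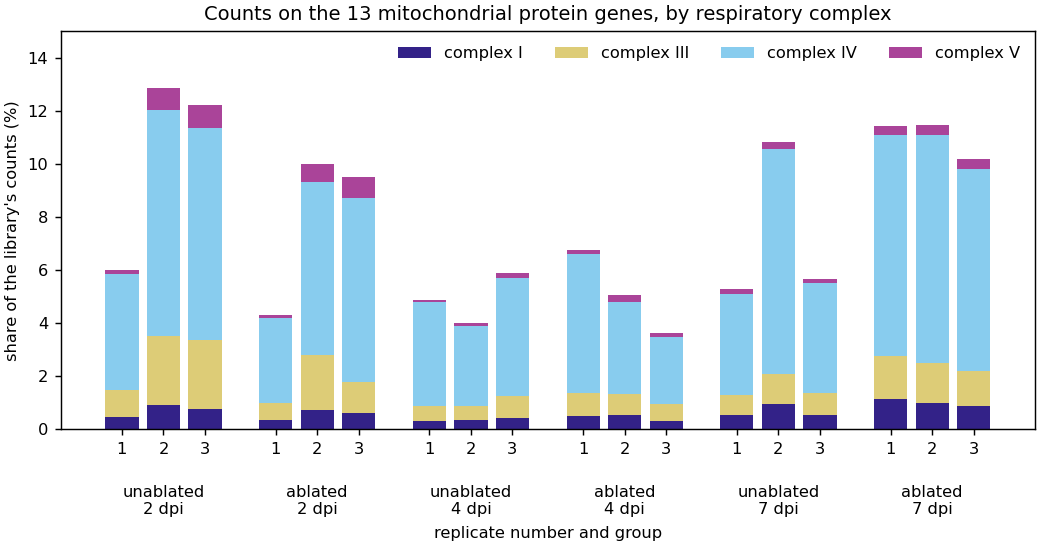
Stacked bars give, for each library, the percentage of all counts that fell on the mitochondrial genes of complexes I, III, IV and V, with replicates 1 to 3 of each group side by side. At 2 dpi replicates 2 and 3 stand above replicate 1 in both arms (9.49% to 12.8% against 4.32% and 6.02%), and at 7 dpi all ablated bars lie between 10.2% and 11.5%.

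The make-up of the mitochondrial counts set 4 libraries apart. In replicates 2 and 3 at 2 dpi, in both arms, mt-co1 took 4.93% to 10.9% of the mitochondrial counts, against 23.5% to 35.3% in the other 14 libraries. The same 4 libraries were high in both complex V genes, with mt-atp6 at 6.05% to 7.75% against 1.55% to 4.70% and mt-atp8 at 0.379% to 0.519% against 0.130% to 0.335%. They were low in mt-nd4, at 1.39% to 2.40% against 2.68% to 4.39%, and in mt-nd5, at 0.868% to 0.973% against 0.999% to 2.85%. For these 5 genes the ranges of the 4 and the 14 libraries did not overlap, and for the other 8 genes they did. A share of mitochondrial counts has no counterpart over all genes. Whether nuclear genes set the same 4 libraries apart was not tested, so the count is not shown to be particular to mitochondrial genes. On the scale of TPM, mt-co1 reached 0.0541 to 0.167 of mt-co2 in the 4 libraries and 0.331 to 0.739 in the others, while the ratio of mt-co2 to mt-co3 was 1.26 to 1.68 and 1.23 to 1.69. The scaling factors (TMM) of the 4 libraries were 0.637 to 0.781, and those of the others 0.913 to 1.23.

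These 4 libraries hold both ablated and unablated cells, and replicate 1 at 2 dpi resembled the later libraries in both arms, with mt-co1 at 30.3% of mitochondrial counts in unablated and 33.2% in ablated cells. The difference ran across arms. The 4 libraries carry the one date string of 2 dpi. In the 8 libraries of 4 and 7 dpi that carry another date, mt-co1 took 23.8% to 35.3% of mitochondrial counts, and in the 6 without a date 23.5% to 33.2%. The part of the date in the difference was not tested. At 2 dpi both arms hold replicates 2 and 3 of this date, but libraries of a pair could still differ in make-up. In replicate 3 mt-cyb took 21.2% of mitochondrial counts in unablated and 12.4% in ablated cells, and mt-co2 31.1% and 40.6%. The main fit does not use the pairs. Every contrast of 2 dpi with a later time rests on these 4 libraries.

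**Figure D3:**
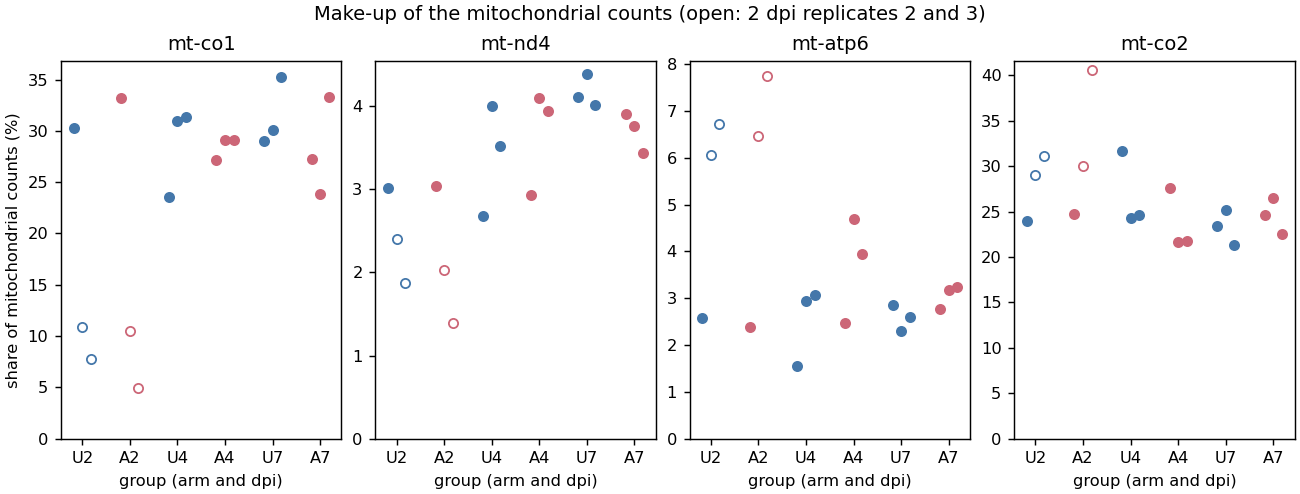
Percentage of the mitochondrial counts held by mt-co1, mt-nd4, mt-atp6 and mt-co2 in each library, by group (U unablated, A ablated, with the dpi), with open points for replicates 2 and 3 at 2 dpi. The open points of mt-co1 lie at 4.93% to 10.9% and all filled points at 23.5% to 35.3%, with no gap of this kind for mt-co2.

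Values of each gene in every library follow by complex, as CPM of the whole library before any other scaling, and always for replicates 1, 2 and 3 in that order. Complex I takes electrons from NADH and pumps protons. Its subunit mt-nd1 lies at the quinone site and stood at 508, 1384 and 1203 CPM at 2 dpi, 375, 581 and 571 CPM at 4 dpi and 438, 1046 and 1003 CPM at 7 dpi in unablated larvae. In ablated larvae mt-nd1 stood at 530.3, 1258 and 1168 CPM at 2 dpi, 815, 944 and 585 CPM at 4 dpi and 1019.6, 1266 and 1398 CPM at 7 dpi. The arms were nearly level in each pair at 2 dpi, and at 4 dpi all ablated libraries lay above all unablated ones.

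mt-nd2, mt-nd4 and mt-nd5 encode the antiporter-like subunits of the proton-pumping arm. Unablated libraries held mt-nd2 at 435, 2294 and 2047 CPM at 2 dpi, 299, 553 and 501 CPM at 4 dpi and 583, 1526 and 761 CPM at 7 dpi. In ablated libraries mt-nd2 stood at 408, 2450.4 and 1681 CPM at 2 dpi, 529.6, 1016 and 462 CPM at 4 dpi and 1550.01, 1849 and 1708 CPM at 7 dpi. Replicates 2 and 3 at 2 dpi held several times the mt-nd2 of replicate 1, and at 7 dpi the ablated libraries all lay above the unablated ones. For mt-nd4 the unablated values were 1814, 3078 and 2292 CPM at 2 dpi, 1305, 1599.9 and 2074 CPM at 4 dpi and 2169, 4750.1 and 2274 CPM at 7 dpi. The ablated values of mt-nd4 were 1312, 2032 and 1318 CPM at 2 dpi, 1982, 2079 and 1429 CPM at 4 dpi and 4468, 4309.9 and 3497 CPM at 7 dpi. mt-nd4 was lower in the ablated library of each pair at 2 dpi, but the ranges of the arms overlapped at every time. Unablated libraries had mt-nd5 at 1523, 1229 and 1189 CPM at 2 dpi, 798, 488 and 588 CPM at 4 dpi and 1506, 1361 and 748 CPM at 7 dpi. Ablated libraries had mt-nd5 at 877, 868 and 836 CPM at 2 dpi, 1025, 700.3 and 467 CPM at 4 dpi and 3131, 1254 and 1248 CPM at 7 dpi. At 2 dpi the 3 ablated libraries lay below the 3 unablated ones, and mt-nd5 was the only one of the 13 genes for which this held. Its highest value was that of ablated 7 dpi replicate 1, far above the other ablated 7 dpi libraries.

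The small complex I subunits mt-nd3, mt-nd4l and mt-nd6 were among the least counted. mt-nd3 was read at 88.5, 277 and 328 CPM at 2 dpi, 75.5, 62.5 and 67.9 CPM at 4 dpi and 129, 198 and 70.9 CPM at 7 dpi in unablated libraries. The ablated libraries had mt-nd3 at 72.1, 248 and 476 CPM at 2 dpi, 118, 109 and 61.3 CPM at 4 dpi and 346, 267 and 196 CPM at 7 dpi. It was the one gene whose fitted effect at 2 dpi lay above 0 (0.15), and it turned to -0.71 without ablated replicate 3, -0.30 without unablated replicate 1, -0.065 with the replicate number as a block and -0.035 by limma on TPM. mt-nd4l stood at 136, 297 and 189 CPM at 2 dpi, 83.0, 193 and 217 CPM at 4 dpi and 199.96, 482 and 279 CPM at 7 dpi in unablated cells. Ablated cells gave 98.0, 211 and 125 CPM at 2 dpi, 112, 255 and 164 CPM at 4 dpi and 419, 496 and 457 CPM at 7 dpi for mt-nd4l, lower than their unablated partner in each pair at 2 dpi and higher in each pair at 7 dpi. mt-nd6, the only protein gene on the minus strand, was counted at 276, 437 and 431 CPM at 2 dpi, 204, 138 and 188 CPM at 4 dpi and 272, 311 and 219.6 CPM at 7 dpi in unablated libraries. Its ablated values were 157, 267 and 382 CPM at 2 dpi, 294, 192 and 131 CPM at 4 dpi and 655, 362 and 331 CPM at 7 dpi. At 7 dpi the ablated libraries all lay above the unablated ones in mt-nd6.

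Complex III passes electrons from quinol to cytochrome c, and mt-cyb is its only mitochondrially encoded subunit. The unablated libraries held mt-cyb at 9895, 26229 and 25871 CPM at 2 dpi, 5648, 5086 and 8292 CPM at 4 dpi and 7499.9, 11240.3 and 8465 CPM at 7 dpi. The ablated libraries held mt-cyb at 6407, 20804 and 11729 CPM at 2 dpi, 8744, 7868 and 6353 CPM at 4 dpi and 15883, 15303 and 13059.6 CPM at 7 dpi. At 2 dpi mt-cyb was lower in the ablated library of all 3 pairs, most in replicate 3, and at 7 dpi every ablated library exceeded every unablated one.

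Complex IV reduces oxygen to water. Its catalytic subunit mt-co1 stood at 18253, 13982 and 9517 CPM at 2 dpi, 11459.8, 12399 and 18485 CPM at 4 dpi and 15304, 32503 and 19989 CPM at 7 dpi in unablated libraries. In ablated libraries mt-co1 was at 14353, 10474 and 4683 CPM at 2 dpi, 18418, 14765 and 10571 CPM at 4 dpi and 31169, 27292 and 33866 CPM at 7 dpi. Unlike the other 2 complex IV genes, mt-co1 was no higher in replicates 2 and 3 than in replicate 1 at 2 dpi, in either arm. mt-co2 was at 14408, 37313 and 38008 CPM at 2 dpi, 15426, 9703 and 14507 CPM at 4 dpi and 12339, 27288 and 12056 CPM at 7 dpi in the unablated arm. The ablated arm had mt-co2 at 10671, 30022 and 38536 CPM at 2 dpi, 18686, 10997 and 7906 CPM at 4 dpi and 28139.8, 30378 and 22979.8 CPM at 7 dpi. Its arms overlapped at every time, and the 4 libraries that stand apart reached about the levels of the highest 7 dpi libraries or more. Unablated mt-co3 was read at 11193, 33675 and 32384 CPM at 2 dpi, 12214, 7964 and 11490.3 CPM at 4 dpi and 10699.6, 24865 and 9218 CPM at 7 dpi. Ablated mt-co3 was read at 7183, 24438 and 26162 CPM at 2 dpi, 15192, 9209 and 6656 CPM at 4 dpi and 24186, 27982 and 19525 CPM at 7 dpi. mt-co3 was lower in the ablated library of all 3 pairs at 2 dpi and higher in all 3 pairs at 7 dpi, again with overlapping ranges.

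Complex V is the ATP synthase, in which mt-atp6 forms part of the proton path and mt-atp8 is a small subunit of the stator. mt-atp6 stood at 1547, 7771 and 8222 CPM at 2 dpi, 755, 1175 and 1802 CPM at 4 dpi and 1505, 2489 and 1475 CPM at 7 dpi in unablated larvae. Ablated larvae had mt-atp6 at 1028, 6472 and 7363 CPM at 2 dpi, 1667, 2380.1 and 1432 CPM at 4 dpi and 3178, 3641 and 3299 CPM at 7 dpi. In both arms at 2 dpi its level in replicates 2 and 3 was several times that in replicate 1. mt-atp8 was at 132, 487 and 506 CPM at 2 dpi, 79.0, 76.9 and 105 CPM at 4 dpi and 118, 141 and 97.0 CPM at 7 dpi in unablated libraries. In the ablated arm mt-atp8 was at 90.3, 489.8 and 493 CPM at 2 dpi, 148, 169.96 and 87.3 CPM at 4 dpi and 257, 225 and 239 CPM at 7 dpi. At 7 dpi all ablated libraries lay above all unablated ones for both complex V genes.

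The question at 2 dpi was what differed in the sorted cells soon after the injury. No mitochondrial message passed the threshold. The 13 genes tended to move together within a pair, so counts of them here and below are not counts of independent observations. Of the 13 genes 12 had a fitted log2 fold change below 0, the median was -0.49 against -0.027 over all 20093 genes tested, and the estimates ran from -0.78 for mt-cyb to 0.15 for mt-nd3. The lowest adjusted p belonged to mt-nd4 (-0.73, SE 0.46, adjusted p = 0.471, edgeR quasi-likelihood test). mt-nd5 had -0.67 (adjusted p = 0.508) and mt-cyb -0.78 (SE 0.57, adjusted p = 0.556). Over all genes 2.25% were called at this time. None of the 13 had an unadjusted p under 0.05, against 16.5% of all genes, and DESeq2 and limma on log2(TPM + 1) called none either.

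Within replicate numbers, whose 2 libraries share a date or the lack of one, the ablated library was lower for 12, 11 and 11 of the 13 genes in pairs 1, 2 and 3, with median log2 differences in CPM of -0.47, -0.33 and -0.28. In CPM, without TMM scaling, the arms did not overlap for 1 of 13 genes (mt-nd5), against 20.8% of all genes tested in either direction. With the replicate number as a block, again none of the 13 was called, against 14.4% of all genes. In that fit all 13 estimates lay below 0, and 6 had an unadjusted p under 0.05, against 26.8% of all genes. RPE markers moved beside this comparison. At 2 dpi their sum lay at 123262 to 146300 CPM without ablation and at 62086 to 94463 CPM after it. Per library 19 or 20 of 20 markers were detected. Of 19 tested markers 1 was called lower and none higher, against 2.25% of all genes called. With the replicate block 8 were called lower and none higher, against 14.4% of all genes called. Müller glia markers also differed, with sums of 7358, 4776 and 2673 CPM in unablated and 2782, 773 and 635 CPM in ablated replicates 1, 2 and 3. Muscle markers summed to 2523 CPM in unablated replicate 1, with 20 of 20 detected, and to 25.2 to 58.6 CPM in the other 5 libraries. Without unablated replicate 1 the median of the 13 genes was -0.76. Other single libraries took the median towards 0, to -0.032 with ablated replicate 1 removed, to -0.067 with unablated replicate 3 removed and to -0.21 with unablated replicate 2 removed. Without ablated replicate 1 or without unablated replicate 3 the estimates of mt-nd1, mt-nd2, mt-co2, mt-atp8 and mt-atp6 lay above 0. These fits ignore the pairs, and each keeps the partner of the library left out. The arms then differ in their mix of dated and undated libraries. The part of that mix in these shifts was not tested. The part of the marker differences in the mitochondrial values was not tested.

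At 4 dpi the fitted estimates for the mitochondrial messages lay on both sides of 0, over pairs that disagreed. The fitted log2 fold changes ran from -0.28 for mt-co2 to 0.46 for mt-nd1, 8 above and 5 below 0, with a median of 0.023 against -0.067 over all genes. The lowest adjusted p was 0.847 (mt-nd1, 0.46, SE 0.55), while 0.0946% of all genes were called. No member had an unadjusted p under 0.05, against 11.7% of all genes, and none was called by DESeq2, by limma or with the replicate block, which called 8.62% of all genes. The pairs went opposite ways. All 13 genes were higher in the ablated library of pairs 1 and 2, with median log2 differences of 0.63 and 0.52, and 12 of 13 were lower in pair 3, with a median of -0.38. In CPM, without TMM scaling, the arms did not overlap for 1 gene, mt-nd1, against 25.0% of all genes in either direction. Its lowest ablated library (585 CPM) has a TMM factor of 1.21 and unablated replicate 3 (571 CPM) one of 1.07, so dividing by the factors closes this gap.

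At 7 dpi all 13 estimates lay above 0, from 0.42 for mt-nd4 to 1.02 for mt-nd3, with a median of 0.70 against -0.0043 over all genes. None passed the threshold. mt-atp8 had the lowest adjusted p, with an unablated mean of 119 ± 21.9 CPM (SD, n = 3), an ablated mean of 241 ± 16.3 CPM and a fitted log2 difference of 1.01, SE 0.65, adjusted p = 0.829. mt-cyb went from 9069 ± 1942 to 14748 ± 1491 CPM (0.71, SE 0.57, adjusted p = 0.88), and mt-nd3 from 133 ± 63.6 to 269.7 ± 74.8 CPM (1.02, SE 0.69, adjusted p = 0.837). mt-co1, mt-nd4 and mt-nd5, which were lower in the ablated library of pair 2, had 0.43, 0.42 and 0.60. The edgeR test called 0% of all genes at this time, and no member had an unadjusted p under 0.05, against 6.61% of all genes, or was called by DESeq2 or limma.

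The ablated library was higher for 13, 10 and 13 of the 13 genes in pairs 1, 2 and 3 at 7 dpi, with median log2 differences of 1.12, 0.22 and 0.76. In 5 genes, mt-nd2, mt-atp8, mt-atp6, mt-nd6 and mt-cyb, all ablated libraries lay above all unablated ones in CPM. Of all genes tested 9.33% had arms that did not overlap, in either direction. Dividing by the TMM factors closes the gap for mt-nd2. Its lowest ablated library (1550 CPM) has a factor of 1.16 and its highest unablated one (1526 CPM) 1.05. The gap of mt-nd6 closes as well (331 CPM with a factor of 1.13 against 311 CPM with 1.05). Those of mt-atp8, mt-atp6 and mt-cyb stay. With the replicate block, 11 of 13 had an unadjusted p under 0.05, against 14.9% of all genes, and none was called, the lowest adjusted p being 0.133 (mt-nd3), and 0.00498% of all genes were called. Macrophage and microglia markers summed to 157, 11.4 and 1303 CPM in the ablated and 54.0, 115 and 10.7 CPM in the unablated libraries, with mpeg1.1 at 139 CPM in ablated replicate 3 and at 0 in 6 of the 18 libraries. Without ablated replicate 3 the median of the 13 genes was 0.88.

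**Figure D4:**
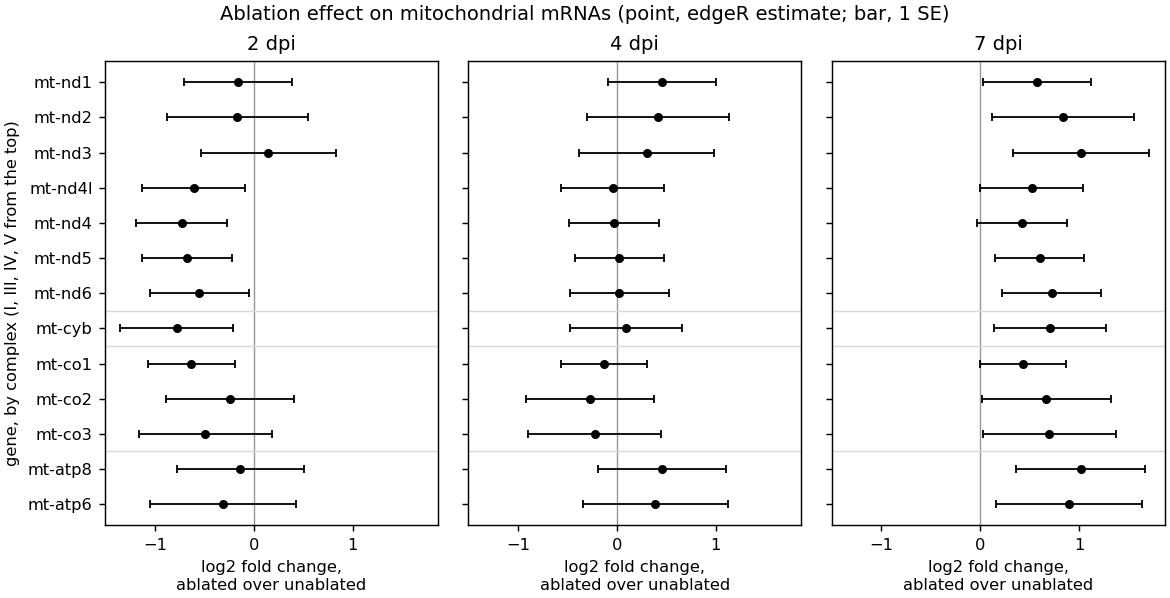
Fitted log2 fold change of ablated over unablated cells for the 13 genes, grouped by complex, at 2, 4 and 7 dpi, with bars of 1 SE. At 2 dpi 12 of 13 points lie below 0, at 4 dpi they straddle 0, and at 7 dpi all 13 lie above it, with no gene past the threshold at any time.

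Whether the ablation effect itself changed between times was asked next. From 2 to 7 dpi the estimate of the effect was higher in all 13 genes, by 0.73 (mt-nd1) to 1.49 (mt-cyb) on the log2 scale, with a median of 1.15 against 0.027 over all genes. edgeR called none of the 13 and 0% of all genes, none of the 13 had an unadjusted p under 0.05, and DESeq2 called none of them. With the replicate block the change passed the threshold for 1 of the 13 genes, mt-cyb (1.51, SE 0.37, adjusted p = 0.0479), while 4.29% of all genes were called. All 13 had an unadjusted p under 0.05 in that fit, against 18.8% of all genes. As the 13 tended to move together, this count is not that of independent tests. mt-nd4l came next with 1.22, SE 0.30, adjusted p = 0.0509. From 2 to 4 dpi the change had a median of 0.58 and from 4 to 7 dpi of 0.56, with no member and 0% of all genes called in either by edgeR without the block, no unadjusted p under 0.05 among the members in that fit, and none called by DESeq2. With the block no member was called either, while 0.0796% of all genes were called from 2 to 4 dpi and 0% from 4 to 7 dpi. An unadjusted p under 0.05 was then reached by 2 members from 2 to 4 dpi (mt-atp6 and mt-cyb), against 11.8% of all genes, and by 3 from 4 to 7 dpi (mt-co2, mt-co3 and mt-nd3), against 8.32%.

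In unablated cells the messages stood lower at 4 than at 2 dpi. All 13 estimates lay below 0, with a median of -1.71 against 0.15 over all genes, and 2 passed the threshold, against 3.57% of all genes. mt-atp8 went from 375 ± 211 to 86.9 ± 15.5 CPM (-2.68, SE 0.68, adjusted p = 0.0406), and mt-cyb from 20665 ± 9329 to 6342 ± 1712 CPM (-2.25, SE 0.59, adjusted p = 0.0457). For both genes all 4 dpi libraries lay below all 2 dpi libraries, as they did for mt-nd3, mt-nd5 and mt-nd6, which makes 5 of 13 genes against 24.5% of all genes whose ranges at the 2 times did not overlap. mt-atp6 had a log2 difference of -2.84, SE 0.79, adjusted p = 0.0539, and mt-co1 one of -0.37, SE 0.44, adjusted p = 0.703. An unadjusted p under 0.05 was reached by 11 of 13 genes, against 19.5% of all genes, the exceptions being mt-co1 and mt-nd4l.

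Both calls lay near the threshold. With single libraries left out the log2 differences ran from -3.15 to -2.22 for mt-atp8 and from -2.66 to -1.87 for mt-cyb, and the adjusted p from 0.00724 to 0.177 and from 0.00876 to 0.199. The count of 2 was 0 when any 1 of 8 libraries was left out, namely unablated 2 dpi replicates 2 and 3, the 3 unablated 4 dpi replicates, and replicate 2 of the ablated 2, 4 and 7 dpi groups. The ablated libraries are not in this contrast and enter it through the shared fit alone. It was 1 without any 1 of 7 others, and 8 and 7 without replicate 1 of unablated and of ablated 2 dpi. In the last 2 fits 8.04% and 5.92% of all genes were called. DESeq2 called 9 of the 13, against 7.39% of the 29184 genes to which it gave a p, and a fit without all first replicates called 10, against 11.7% of all genes. In replicate 1 alone, where no library carries a date, the unablated mitochondrial share was 6.02%, 4.87% and 5.28% of counts at 2, 4 and 7 dpi, mt-cyb stood at 9895, 5648 and 7499.9 CPM, and mt-atp8 at 132, 79.0 and 118 CPM.

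**Figure D5:**
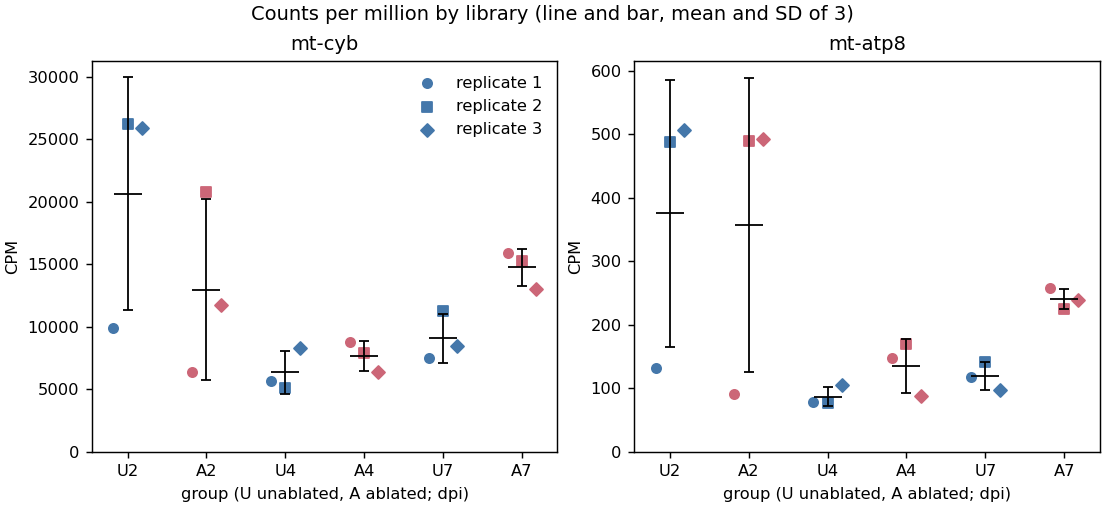
CPM of mt-cyb and mt-atp8 in each library by group (U unablated, A ablated, with the dpi), with circles, squares and diamonds for replicates 1, 2 and 3 and the mean and SD of 3 in black. Replicates 2 and 3 at 2 dpi stand highest for mt-atp8 in both arms (487 to 506 CPM), replicate 1 at 2 dpi lies far below them, and the unablated 4 dpi libraries lie between 76.9 and 105 CPM.

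The remaining time contrasts gave no member past the threshold in edgeR. In unablated cells at 7 against 2 dpi 11 of 13 estimates lay below 0 (median -1.28), with 3.86% of all genes called. There 3 members had an unadjusted p under 0.05, against 21.0% of all genes. DESeq2 called 3 (8.82% of its genes), and the fit without all first replicates 5 (13.2%). Without unablated or without ablated 2 dpi replicate 1 the count was 3 (7.09% and 6.25% of all genes). At 7 against 4 dpi all 13 lay above 0 (median 0.71), none with an unadjusted p under 0.05 and none called by DESeq2, and 0% of all genes were called. In ablated cells at 4 against 2 dpi 12 of 13 lay below 0 (median -1.38), and 4.30% of all genes were called. An unadjusted p under 0.05 was reached by 7 members and 17.7% of all genes. DESeq2 called 4 of the 13 (7.37% of its genes) and the fit without all first replicates 10 (11.4%). The count was 5 without ablated and 1 without unablated 2 dpi replicate 1 (7.16% and 6.02% of all genes).

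In ablated cells the messages stood higher at 7 than at 4 dpi in CPM, with none past the threshold. At 7 dpi every ablated library exceeded every ablated 4 dpi library in all 13 genes, with a median log2 difference of 1.33 (range 0.87 to 1.69), while the ranges of the 2 times did not overlap in 13.4% of all genes. Here 7 members had an unadjusted p under 0.05, against 4.09% of all genes, but the adjusted p was 0.994 for all of them, DESeq2 called none, and 0% of all genes were called. At 7 against 2 dpi 5 members were above and 8 below 0, with 6.75% of all genes called. An unadjusted p under 0.05 was reached by 3 members and 22.7% of all genes, and DESeq2 and the fit without all first replicates called 1 member each (10.9% and 8.87% of genes). mt-co1 was the highest (1.41, SE 0.44, adjusted p = 0.0654), and mt-co1, mt-nd4, mt-nd4l and mt-nd5 were the genes for which the 7 dpi ablated libraries all lay above the 2 dpi ones, 4 of 13 against 22.1% of all genes with no overlap. In replicate 1 the ablated mitochondrial share was 4.32% at 2 dpi, 6.77% at 4 dpi and 11.4% at 7 dpi. In replicates 2 and 3 it was lower at 4 dpi than at 2 dpi (10.0%, 5.07% and 11.5%, and 9.49%, 3.63% and 10.2% at 2, 4 and 7 dpi). Replicate numbers do not link libraries of different times.

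Some nuclear genes that act on mitochondrial DNA and RNA did pass the threshold at 2 dpi. The nuclear lists here and below were chosen with earlier results of these data known. Their counts beside the shares of all genes are therefore descriptive and give no independent support. Among 14 measured and tested genes of mitochondrial DNA transcription and replication, 2 were called higher and none lower in ablated cells, against 2.25% of all genes. tfb2m, a transcription factor of the mitochondrial RNA polymerase, stood at 16.8, 6.94 and 10.8 CPM in unablated and 106, 51.6 and 25.0 CPM in ablated libraries (2.21, SE 0.43, adjusted p = 0.0169). ssbp1, the mitochondrial single-stranded DNA binding protein, stood at 42.8, 52.0 and 67.7 CPM in unablated and 164, 231 and 343 CPM in ablated libraries (2.12, SE 0.46, adjusted p = 0.0266). Both rose at the time when no mitochondrial message was called. DESeq2 called 4 of the 14 higher and limma 2 at 2 dpi, against 6.03% and 1.90% of all genes. With the block 3 of the 14 were called higher at 2 dpi, against 14.4% of all genes, and 1 at 4 dpi, against 8.62%. At 7 dpi tfb2m and ssbp1 had log2 fold changes of -0.65 and 0.51, neither past the threshold. DESeq2 and limma each called 1 of the 14 higher at 4 dpi, against 2.54% and 1.13% of all genes. At 7 dpi DESeq2 called 1 lower and limma none, against 0.524% and 0.00498%. An unadjusted p under 0.05 was reached by 4, 1 and 3 of the 14 at 2, 4 and 7 dpi. The shares of all genes were 16.5%, 11.7% and 6.61%.

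Of 26 tested genes of mitochondrial RNA processing and turnover 4 were called higher at 2 dpi and none lower, 24 of 26 estimates lay above 0, and the median was 1.60 against 2.25% called and a median of -0.027 over all genes. mtpap, the mitochondrial poly(A) polymerase, was at 2.57, 0.444 and 1.31 CPM in unablated and 18.01, 4.47 and 7.99 CPM in ablated libraries (2.69, SE 0.64, adjusted p = 0.0375). pde12, a deadenylase of mitochondria, was at 4.96, 2.39 and 3.31 CPM in unablated and 22.0, 16.7 and 10.6 CPM in ablated libraries (2.1, SE 0.50, adjusted p = 0.0387). slirp, which stabilises mitochondrial messages as partner of Lrpprc in mammals, was at 75.8, 128 and 147 CPM in unablated and 317, 475 and 1011 CPM in ablated libraries (2.32, SE 0.57, adjusted p = 0.0441). grsf1, a protein of mitochondrial RNA granules, was at 19.8, 22.1 and 14.3 CPM in unablated and 85.8, 59.1 and 32.2 CPM in ablated libraries (1.49, SE 0.38, adjusted p = 0.0469). For each of these 4 genes all ablated libraries lay above all unablated ones at 2 dpi. They were named because they were called in this contrast, which favours such a gap, so the gap adds no support. The share of 20.8% of all genes tested whose arms did not overlap, in either direction, is for the same reason no measure for these 4. DESeq2 called 15 of the 26 higher at 2 dpi and limma 1, against 6.03% and 1.90% of all genes. None of the 26 was called by edgeR at 4 or 7 dpi, where the medians were 0.61 and 0.35. An unadjusted p under 0.05 was reached by 4 and 2 of them, against 11.7% and 6.61% of all genes. At 4 dpi DESeq2 called 3 and limma 1, against 2.54% and 1.13% of all genes, and at 7 dpi both called none, against 0.524% and 0.00498%. With the replicate block 17 of the 26 were called higher at 2 dpi (14.4% of all genes), 3 at 4 dpi (8.62%) and none at 7 dpi.

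Among chaperones and proteases of mitochondria 1 of 18 was called at 2 dpi, against 2.25% of all genes. This was hspd1, the matrix chaperonin, which stood at 16.5, 7.11 and 14.2 CPM in unablated and 172, 97.9 and 119 CPM in ablated libraries (3.24, SE 0.64, adjusted p = 0.0187). DESeq2 called 4 and limma 2 of the 18 higher at 2 dpi, against 6.03% and 1.90% of all genes. At 4 dpi DESeq2 called 2 higher and limma none, against 2.54% and 1.13%, and at 7 dpi both called none. With the block 8 of the 18 were called higher at 2 dpi and 6 at 4 dpi, against 14.4% and 8.62% of all genes. Of 11 regulators of mitochondrial biogenesis edgeR called none in any ablation contrast. An unadjusted p under 0.05 was reached by 2, 3 and 1 at 2, 4 and 7 dpi, against 16.5%, 11.7% and 6.61% of all genes. At 2 dpi DESeq2 called 1 higher and 1 lower, as did the block, and limma 1 higher. The shares of all genes called were 6.03%, 14.4% and 1.90% in this order. At 4 dpi the block called 1 higher and 2 lower, against 8.62% of all genes. The genes with the highest levels of the list, nfe2l2a and yy1a, had log2 fold changes of -1.04 and 0.021 at 2 dpi, and nfe2l2a was called lower with the block (adjusted p = 0.00717). nfe2l2a encodes a transcription factor of the oxidative stress response.

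Among the nuclear genes of complexes I to V and of cytochrome c, edgeR called 1 at 2 dpi, against 2.25% of all genes. cycsb, a cytochrome c gene, was at 266, 264 and 336 CPM in unablated and 982, 1514 and 1149 CPM in ablated libraries (1.98, SE 0.49, adjusted p = 0.0433). edgeR called none of 36 nuclear subunits of complex I, 5 subunits of complex II, 19 of complex IV or 18 of complex V in any ablation contrast. At 2 dpi 1, 1, 3 and 1 of them had an unadjusted p under 0.05, against 16.5% of all genes. DESeq2 called 1, lower, in complex IV, while limma called 1 higher in complex I and 1 lower in complex IV. Of the 10 complex III and cytochrome c genes 2 had such a p, and DESeq2 and limma each called 1, higher. The shares of all genes called by DESeq2 and limma were 6.03% and 1.90%. At 4 dpi the unadjusted counts were 4, 0, 2 and 4, against 11.7% of all genes. DESeq2 called 1 in complex IV and 3 in complex V, all higher, and limma 1 in complex V. Of the 10 complex III and cytochrome c genes 6 had such a p, of which DESeq2 called 2 higher and limma none. The shares of all genes called by DESeq2 and limma were 2.54% and 1.13%. At 7 dpi 2 complex I genes had an unadjusted p under 0.05, against 6.61% of all genes. DESeq2 and limma called none, against 0.524% and 0.00498% of all genes. With the block, 3 of complex I, 2 of II, 3 of III and cytochrome c, 3 of IV and 2 of V were called higher at 2 dpi, with 3 of IV called lower, and at 4 dpi 2, 1, 5, 4 and 5 were called higher. Over all genes the block called 14.4% and 8.62% at these times. Their medians at 2 dpi were 0.56, 0.70, 0.54 and 0.36, and that of the 10 complex III and cytochrome c genes 0.88, whereas the 13 mitochondrial genes had -0.49. At 7 dpi the medians were 0.61, 0.10, 0.49, 0.42 and 0.40 in the same order, and that of the mitochondrial genes 0.70. The difference between nuclear and mitochondrial subunits was not tested. Examples by level at 2 dpi were ndufb8 and ndufa6 of complex I (0.18 and 0.58), sdhc and sdhb of complex II (0.92 and 0.32), cox6a1 and cox7c of complex IV (1.1 and 0.54), and atp5g3b and atp5o of complex V (-0.048 and 0.28), all as log2 fold changes that missed the threshold. With the block cox6a1 was called higher (adjusted p = 0.0185).

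From 2 to 4 dpi in unablated cells, where 2 of the 13 mitochondrial messages were called lower, 21 of 36 nuclear complex I subunits, 1 of 5 of complex II, 5 of 10 of complex III and cytochrome c, 6 of 19 of complex IV and 8 of 18 of complex V were called lower and none higher, against 2.76% of all genes called lower. Their medians lay between -1.38 and -2.57. In ablated cells, where 3.28% of all genes were called lower, the counts were 20, 1, 6, 8 and 10, and none of the 13 mitochondrial genes was called. These contrasts rest on the same 4 libraries of replicates 2 and 3 at 2 dpi as those of the mitochondrial genes.

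The ratio of mt-nd6 to mt-cyb sets the counts of a gene on the minus strand against those of a gene on the plus strand. Whether strand was used in counting is not given in the sources used here. The counts of mt-nd6 may therefore hold reads of the plus strand, and the ratio does not measure the strands as such. mt-nd6 counts were 1.28% to 4.12% of mt-cyb counts over the 18 libraries, lowest in ablated 2 dpi replicate 2 and highest in ablated 7 dpi replicate 1. Ablated minus unablated, the log2 ratio differed by -0.0065 averaged over the 3 times (2-sided exact permutation test within times, p = 0.973, 8000 arrangements). Within 2, 4 and 7 dpi the differences were 0.14, -0.13 and -0.026 (exact permutation p = 0.9, 0.7 and 0.9), where 3 libraries against 3 can give no p under 0.1. Within pairs the differences were -0.18, -0.38 and 0.97 at 2 dpi, -0.10, -0.16 and -0.13 at 4 dpi and 0.19, -0.23 and -0.035 at 7 dpi, so all 3 pairs were lower in ablated cells at 4 dpi. Exact sign flips over the 9 pairs gave p = 0.98 (512 arrangements), and within 4 dpi p = 0.25, the smallest that 3 pairs allow. The arms overlapped at every time.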

How the data were processed

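RNA-seq of sorted cells was deposited as 1 table per time, each with 34326 rows. The deposited counts are, per the file headers, totals of paired reads after trimming, and TPM stand beside them. The counts were used as they stand and the deposited TPM for levels per length. TPM implied the listed row length for 13 of 13 mitochondrial genes within 0.5 base. The labels' protocols name SMART-Seq v4 for cDNA and Nextera XT for libraries. Per the submitters' processing notes the genome was GRCz10. Aligner, counter and annotation release: not given in the sources used here. All 18 count columns matched a sample.

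Of 29481 genes that held a count, 20093 passed filterByExpr. After TMM scaling, a robust quasi-likelihood model in edgeR 4.0.16 (R 4.3.3) held 6 group means over 18 libraries (12 residual degrees of freedom, common biological coefficient of variation 79.9%). P-values were adjusted by Benjamini-Hochberg across the 20093 genes, and calls are at 0.05. Printed CPM are scaled to the library total, without TMM, so a fitted fold change can differ from the ratio of mean CPM. Statements that the CPM of groups do or do not overlap use these values. The shares over all genes beside them count either direction. Replicate numbers pair libraries. With group means removed, an ablated library correlated with the unablated one of its number at 0.187 to 0.593, and at most at 0.183 with another number. The block fit adds the 9 pairs (6 residual degrees of freedom) and drops contrasts between times within an arm. Alternatives used DESeq2 1.42.0 and limma 3.58.1 on log2(TPM + 1), and others listed at the end. On simulated data with changes at 2 dpi the fit recovered the size of increases in well-counted genes with hardly any false call, but it missed most changes at the smaller folds and many at the larger ones, and the criterion of this check was loosened for that. Even the smallest simulated fold was larger than any fitted ablation effect on a mitochondrial gene. A gene that missed the threshold may therefore have changed. Exact permutation tests used scipy 1.17.1.

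Every MT row was named. From each of 9 nuclear lists up to 4 members past the threshold in an ablation contrast were named, or the 2 highest by level. The lists, 18 with cell type markers (376 symbols, 333 matched), and the members were chosen with earlier results of these data known. Ratios to the ribosomal RNA rows were planned and not run because those rows are at 0. That left 1 ratio, so its p needed no adjustment. No sequence of a member was used here.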

Additional observations from a re-analysis of the deposited data

Results flagged for a closer look

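The ablation effect on mt-cyb, the complex III gene, differed between 7 and 2 dpi in the model with the replicate block, by 1.51 on the log2 scale (edgeR, SE 0.37, adjusted p = 0.0479). It is listed because this test of a difference between times passed the threshold. In that fit 4.29% of all genes were called, and all 13 mitochondrial genes had an unadjusted p under 0.05, against 18.8% of all genes. The 13 tended to move together and are not independent. Ablated mt-cyb was lower than its unablated partner in 3 of 3 pairs at 2 dpi and higher in 3 of 3 pairs at 7 dpi. The same held for mt-atp6, mt-co3, mt-nd4l and mt-nd6, so the pattern is not particular to mt-cyb. Without the block the same difference was 1.49 (adjusted p = 0.565), and between 1.07 and 1.97 with single libraries left out, with no adjusted p under 0.342. The 2 dpi side includes the 4 libraries whose mitochondrial make-up stood apart, and their part was not tested.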

How the results depend on the processing

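Across rescaling by RLE, no filter, scaling on nuclear genes, DESeq2, limma on TPM, a model per time, first replicates left out and the replicate block, no ablation effect on a mitochondrial gene was called, and the block changed the call of 1 mitochondrial gene alone, mt-cyb between 7 and 2 dpi, and gave no value for contrasts within an arm. Its effect on nuclear genes stands beside them. The median of the 13 genes stayed between -0.56 and -0.43 at 2 dpi, between 0.0062 and 0.11 at 4 dpi, and between 0.55 and 0.73 at 7 dpi, under these settings. With single libraries left out it ran from -0.76 to -0.032 at 2 dpi, from -0.056 to 0.29 at 4 dpi and from 0.56 to 0.95 at 7 dpi. Those fits were without the block, so the partner of the library left out stayed in.

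Counts over time did move. DESeq2 called 9 (unablated, 4 against 2 dpi), 3 (unablated, 7 against 2), 4 (ablated, 4 against 2) and 1 (ablated, 7 against 2) of the 13 genes, and the fit without first replicates 10, 5, 10 and 1. Single libraries left out gave 0 to 8, 0 to 3 and 0 to 5 for the first 3 of these. In unablated cells at 4 against 2 dpi, edgeR also called mt-atp6 with RLE scaling (adjusted p = 0.049) and without the filter (adjusted p = 0.0459). The cause was not tested.

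Estimates near 0 changed sign. At 2 dpi mt-nd3 was -0.065 with the block and -0.035 by limma on TPM. At 4 dpi mt-nd4l was 0.023 (RLE), 0.012 (no filter), 0.024 (DESeq2) and 0.071 (limma on TPM), mt-nd4 was 0.022, 0.021, 0.023 and 0.077 under the same settings and 0.0020 scaled on nuclear genes, and mt-nd6 was -0.0099 with the block and -0.091 without first replicates. Over single libraries left out the log2 fold changes ran at 2 dpi for mt-nd1 -0.56 to 0.24, mt-nd2 -0.66 to 0.33, mt-co2 -0.72 to 0.20, mt-atp8 -0.60 to 0.37, mt-atp6 -0.81 to 0.24 and mt-nd3 -0.71 to 0.73, and at 4 dpi for mt-nd2 -0.0078 to 0.66, mt-co1 -0.29 to 0.12, mt-co2 -0.65 to 0.00089, mt-co3 -0.57 to 0.043, mt-nd4l -0.39 to 0.24, mt-nd4 -0.12 to 0.17, mt-nd5 -0.27 to 0.36, mt-nd6 -0.29 to 0.30 and mt-cyb -0.056 to 0.33. The log2 ratio of mt-nd6 to mt-cyb ran from -0.10 to 0.12. Alternatives for the ratios to ribosomal RNA were not run because those rows are at 0. Each of the 13 genes held at least 2053 counts in every library, and the common coefficient of variation between libraries was 79.9%.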
